A study of Capra hircus with 6 samples.

Results

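The mitochondrial respiratory chain and the ATP synthase were examined as a group of nuclear-encoded genes in mesenchymal stem cells of goat (Capra hircus) fat. Members were the rows of the deposited tables whose identifier begins with NDUFA, NDUFB, NDUFC, NDUFS, NDUFV, UQCR, COX4 to COX8 or ATP5, or is SDHA, SDHB, SDHC or SDHD. This rule found 68 of the 16285 genes listed. Complex I accounted for 37 of them, complex II for 4, complex IV for 2 and the ATP synthase (complex V) for 15, and 10 were assembly factors or relatives (NDUFAF1 to NDUFAF8, ATP5S and ATP5SL). No identifier began with UQCR or with COX4 to COX8. A further 31 rows, most of them under locus numbers, carry such a name only in the tables' gene symbol column. These rows lie outside the rule and were added after the files were seen, and they supply 9 rows for complex III and 17 for complex IV. No row was found under any of 26 names looked up for the mitochondrially encoded subunits, so these were not analysed here.

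The respiratory chain passes electrons from NADH (complex I) and succinate (complex II) through ubiquinone, complex III and cytochrome c to oxygen at complex IV, and complexes I, III and IV pump protons out of the matrix. The ATP synthase lets these protons return through its membrane ring and uses the rotation to make ATP. Most subunits are nuclear genes whose products are imported into the mitochondrion, and assembly factors build the complexes without staying in them. In fat tissue the chain serves both ATP production and, in thermogenic adipocytes, heat.

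RNA was sequenced from 3 libraries labelled Control, with genotype WT, and 3 labelled YAP, with a genotype that overexpresses YAP. All 6 carry the treatment label adipogenic differentiation, the Control libraries included. The table of the YAP libraries repeats the Control values, in all 16285 rows, in 3 columns named pcDNA that match no sample label, and the labels do not say whether the Control cells carried a vector. The labels name no construct, promoter, clone, age or time of differentiation. They do not say whether the replicates are separate cultures, so the p-values measure only the spread between these libraries, which may be technical. The series' design text names the modified cells OE-TAZ, whereas its title and sample labels name YAP.

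Each library held 32593380 to 37131015 counted fragments, as implied by the steps of its FPKM values (fragments per kilobase of gene model, relative to the library's counted fragments). The members took 196471 to 228962 of these reads per library. YAP1 stood at 25.8, 27.0 and 28.9 FPKM in Control 1 to 3 and at 28.4, 25.6 and 28.2 FPKM in YAP 1 to 3. The groups overlapped (log2 change 0.01, SE 0.08, limma adjusted p = 0.95), so the YAP1 transcript does not show the labelled overexpression, and the modified cells are called the libraries labelled YAP throughout. WWTR1, the gene of the YAP paralogue TAZ, was lower in those libraries (log2 change -0.56, limma adjusted p = 0.0013). Of 10 mesenchymal stromal markers all were tested, 5 rose and 2 fell, and their summed level was 20900 to 22100 FPKM in Control and 23700 to 24300 FPKM in YAP. The rises were THY1, PDGFRB, COL1A1, COL1A2 and DCN. ENG (log2 change -0.88, limma adjusted p = 2.2e-05) and NT5E (-0.42, limma adjusted p = 0.0019) were the falls. VIM, the largest part of the sum, was lower in every YAP library (means 12600 and 10500 FPKM) but did not pass (limma adjusted p = 0.07). Of 6 adipocyte markers only CIDEC was tested, and it fell (summed level of the list 17.2 to 19.6 FPKM in Control and 9.14 to 11.0 FPKM in YAP), while ADIPOQ, PLIN1, LPL, LEP and PPARG had at most 27 reads in any library. These 5 defining markers of mature adipocytes were thus absent or nearly so in both groups, and do not show the labelled differentiation. Among 6 leukocyte markers CD14 rose and CD68 fell (summed level 12.9 to 15.9 and 20.4 to 20.9 FPKM), with PTPRC, CD74, AIF1 and TYROBP at 3 reads or fewer. Summed endothelial markers ran from 0.336 to 0.533 FPKM in Control and from 0.215 to 0.293 FPKM in YAP, and none was tested. PECAM1 was lower in every YAP library (means 0.369 and 0.0446 FPKM). VWF went the other way in every YAP library (means 0.0321 and 0.103 FPKM), as did TEK in the means (0.0577 and 0.0931 FPKM, overlapping). Summed skeletal and heart muscle markers ran from 0.0726 to 0.215 FPKM in Control and from 0.0916 to 0.345 FPKM in YAP. Smooth muscle and pericyte markers ran from 23.3 to 31.5 and from 18.5 to 21.1 FPKM. Nearly all of the last sum was CSPG4, at 22.8 to 30.9 FPKM in Control and 18.0 to 20.2 FPKM in YAP. CSPG4 fell (log2 change -0.37, limma adjusted p = 0.024), but did not pass after median-of-ratios scaling (adjusted p = 0.078). MYH11, RGS5 and DES were below 1 FPKM in every library and not tested, and DES was higher in the YAP mean (0.403 and 0.626 FPKM). The part of these marker shifts in the results that follow was not tested. In bulk RNA, fewer cells of a type and less RNA per cell cannot be told apart.

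Subunit transcripts were abundant and, for the most part, slightly lower in the libraries labelled YAP. The median member stood at 74.6 FPKM in Control against 9.79 FPKM for all tested genes, and the ATP synthase F1 subunits ATP5B (388 ± 23.5 FPKM, SD, n = 3) and ATP5A1 (349 ± 15.3 FPKM, SD, n = 3) were the highest members. All 68 members passed the filter of at least 1 FPKM in at least 3 libraries, NDUFA4L2 only through the YAP libraries. By limma on log2(FPKM + 1), with p-values adjusted over all 10761 tested genes by the Benjamini-Hochberg method and a threshold of 0.05, 19 members fell (27.9%) and 1, NDUFA4L2, rose (1.47%). Across all tested genes 23% fell and 12.9% rose. In this fit the share of members that fell was near the background, and the share that rose was below it. The falls were small, between -0.22 and -0.67 on the log2 scale, and 65 of 68 members (95.6%) changed by less than 0.5 in either direction, against 87.4% of all tested genes. The median log2 change was -0.19 over the members (middle 50% of members from -0.27 to -0.11) and -0.10 over all tested genes. A log2(FPKM + 1) change understates the fold of genes with low FPKM.

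**Figure D1:**
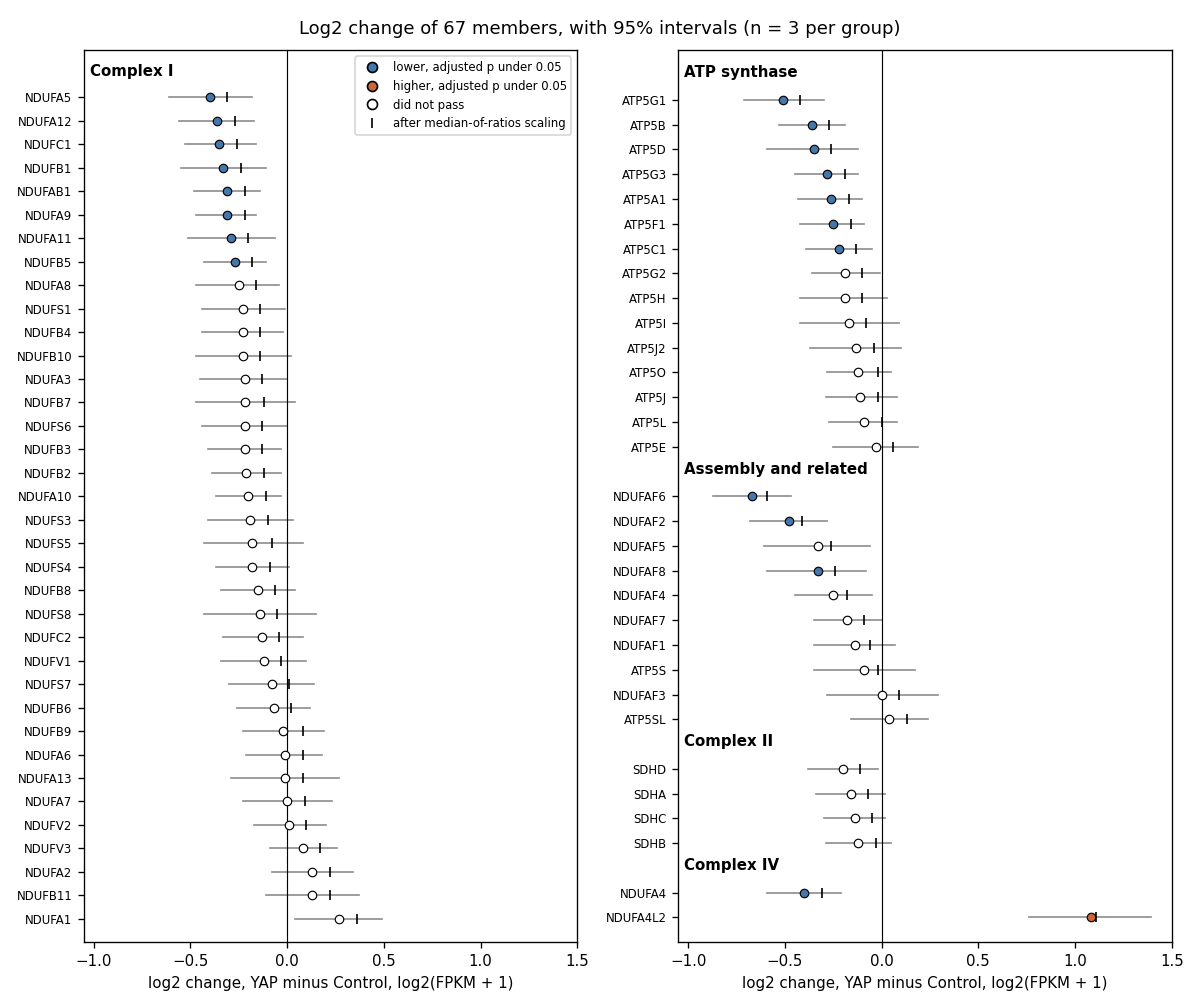
Log2 change of 67 members (libraries labelled YAP minus Control, x axis, on log2(FPKM + 1)), grouped by complex, with 95% intervals from the limma fit and n = 3 per group. Filled circles passed the adjusted threshold, open circles did not, and short vertical bars give the change after median-of-ratios scaling; most points lie a little left of 0, and NDUFA4L2 at 1.08 stands alone on the right.

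Median-of-ratios scaling, which divides each library by the median over genes of its ratio to the genes' geometric mean, moved the whole distribution. The size factors were 1.019 to 1.039 in Control and 0.961 to 0.9746 in YAP, and the median change of all tested genes went from -0.10 to -0.01. The members' median went from -0.19 to -0.10, and 53 members instead of 59 had a change below 0. After scaling, 9 members fell (13.2%) and 2 rose (2.94%), where 13.5% of all tested genes fell and 16.1% rose. All 9 of these falls were among the 19 in the deposited values: NDUFA5, NDUFA12, NDUFC1, NDUFA9, NDUFA4, ATP5G1, ATP5B, NDUFAF6 and NDUFAF2. NDUFA1 joined NDUFA4L2 as a rise. With the whole reads recovered from the FPKM values and limma-voom, 5 members fell (NDUFA4, ATP5G1, ATP5B, NDUFAF6 and NDUFAF2) and the same 2 rose, against 12.9% and 16.9% of all tested genes.

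The count of falls also depended on single libraries. In deposited values it was 16, 13 and 21 without Control 1, 2 and 3 in turn. It was 8, 29 and 11 without YAP 1, 2 and 3 in turn. In the same fits, 1909 of 10642, 2085 of 10649 and 2189 of 10641 tested genes fell without a Control library. Without a YAP library, 1381 of 10607, 2186 of 10621 and 1905 of 10605 tested genes fell, and NDUFA4L2 was not tested. The 2 groups did not overlap for 28 members that were lower in YAP (41.2%, against 31.6% of all tested genes) and for 1 that was higher (1.47%, against 16.7%). After scaling these counts were 15 (22.1%, against 20.9%) and 2 (2.94%, against 23%).

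**Figure D2:**
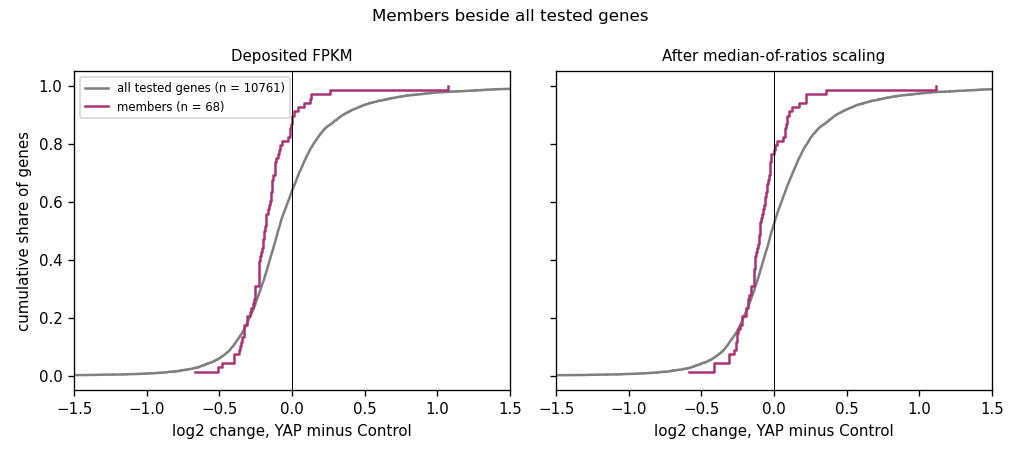
Cumulative share of genes (y axis) against log2 change, libraries labelled YAP minus Control (x axis), for the 68 members and for all 10761 tested genes, in the deposited FPKM (left) and after median-of-ratios scaling (right). The members' curve is steeper, with medians of -0.19 and -0.10 beside -0.10 and -0.01 for all tested genes.

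Summed over the 68 members, expression was 6158, 6581 and 5985 FPKM in Control 1 to 3 and 5391, 5929 and 5148 FPKM in YAP 1 to 3. The groups did not overlap, and YAP 2 came close to Control 3. The sum was 1.36 to 1.40% of a library's total FPKM in Control and 1.21 to 1.30% in YAP. After scaling the sums were 5927, 6459 and 5760 in Control and 5609, 6111 and 5282 in YAP, and YAP 2 then lay above Control 1 and Control 3.

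Complex I, the NADH dehydrogenase, had 8 falls (21.6%, against 23% of all tested genes) and no rise among its 37 members. After scaling it had 4 falls (10.8%, against 13.5%) and 1 rise. Its median log2 change was -0.19 in the deposited values and -0.10 after scaling. The 7 core subunits in the rule carry the flavin, the iron-sulphur clusters and the ubiquinone site, and none of them passed the threshold in either scaling. NDUFV1, which binds NADH, stood at 113, 117 and 92.8 FPKM in Control 1 to 3 and at 96.4, 108 and 91.8 FPKM in YAP 1 to 3. These overlapped, with a log2 change of -0.12 (95% interval -0.34 to 0.10, limma adjusted p = 0.38). NDUFS1, the largest iron-sulphur subunit, had 18.8, 18.3 and 20.7 FPKM in Control and 16.3, 14.4 and 18.4 FPKM in YAP, with YAP 3 above Control 2 (log2 change -0.23, 95% interval -0.44 to -0.01, limma adjusted p = 0.092). It passed without YAP 3 (-0.31, limma adjusted p = 0.041).

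All 8 falls of complex I were among its 30 accessory subunits, which surround the core and stabilise it: NDUFA5, NDUFA12, NDUFC1, NDUFB1, NDUFAB1, NDUFA9, NDUFA11 and NDUFB5. Whether accessory and core subunits differed in their change was not tested. NDUFA5, on the matrix arm, had the largest fall of the complex. Its level was 18.0, 19.0 and 19.6 FPKM in Control 1 to 3 and 13.7, 16.2 and 12.5 FPKM in YAP 1 to 3. All YAP libraries were below all Control libraries (log2 change -0.40, SE 0.10, limma adjusted p = 0.0088, and -0.31 with adjusted p = 0.034 after scaling). NDUFA12, also on the matrix arm, had 69.1, 78.8 and 75.5 FPKM in Control and 57.3, 63.1 and 52.8 FPKM in YAP. The groups were apart, with a log2 change of -0.36 (SE 0.09, limma adjusted p = 0.0078) and -0.27 after scaling (adjusted p = 0.042). For NDUFC1, a small membrane-arm subunit, Control libraries gave 47.1, 50.5 and 46.3 FPKM and YAP libraries 36.6, 41.4 and 34.7 FPKM. It was lower in every YAP library (log2 change -0.35, SE 0.09, limma adjusted p = 0.0088, and -0.26 with adjusted p = 0.047 after scaling), and lost the call without YAP 1 (-0.33, adjusted p = 0.052). With recovered reads and limma-voom, the adjusted p-values were 0.050 for NDUFA5, 0.065 for NDUFA12 and 0.088 for NDUFC1, and none of the 3 passed.

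The remaining accessory falls were of similar size. NDUFA9, at the joint of the matrix and membrane arms, was the tightest, with 58.5, 61.2 and 57.9 FPKM in Control and 47.8, 47.5 and 47.3 FPKM in YAP. The replicates lay closer together than the groups, and the change was -0.31 (limma adjusted p = 0.0056) before and -0.22 (adjusted p = 0.039) after scaling, but did not pass with limma-voom (adjusted p = 0.059). NDUFB1, NDUFAB1 (the mitochondrial acyl carrier protein), NDUFA11 and NDUFB5 changed by -0.27 to -0.33 in the deposited values and did not pass after scaling. The groups of NDUFA11 overlapped. Each of these genes lost its call without YAP 1 and also without YAP 3. NDUFB1 and NDUFA11 lost it without Control 2 as well, and NDUFA11 without Control 1. At the other end, NDUFA7 was the complex I member nearest to no change, at 74.3, 80.9 and 69.1 FPKM in Control and 72.3, 87.0 and 66.2 FPKM in YAP. Its groups overlapped fully (log2 change 0.00, 95% interval -0.23 to 0.23). NDUFA1, a membrane-arm subunit needed for assembly, went the other way at 65.0, 80.2 and 66.9 FPKM in Control and 86.4, 93.1 and 76.0 FPKM in YAP. Control 2 lay above YAP 3, and the change of 0.27 did not pass in deposited values (limma adjusted p = 0.062) but did after scaling (0.36, adjusted p = 0.027). In deposited values it passed without Control 2 (0.36, limma adjusted p = 0.019) or without YAP 3 (0.34, adjusted p = 0.029). NDUFA2 and NDUFB11 at 0.13 and NDUFV3 at 0.08 were the next highest changes of the complex, and none of them passed.

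**Figure D3:**
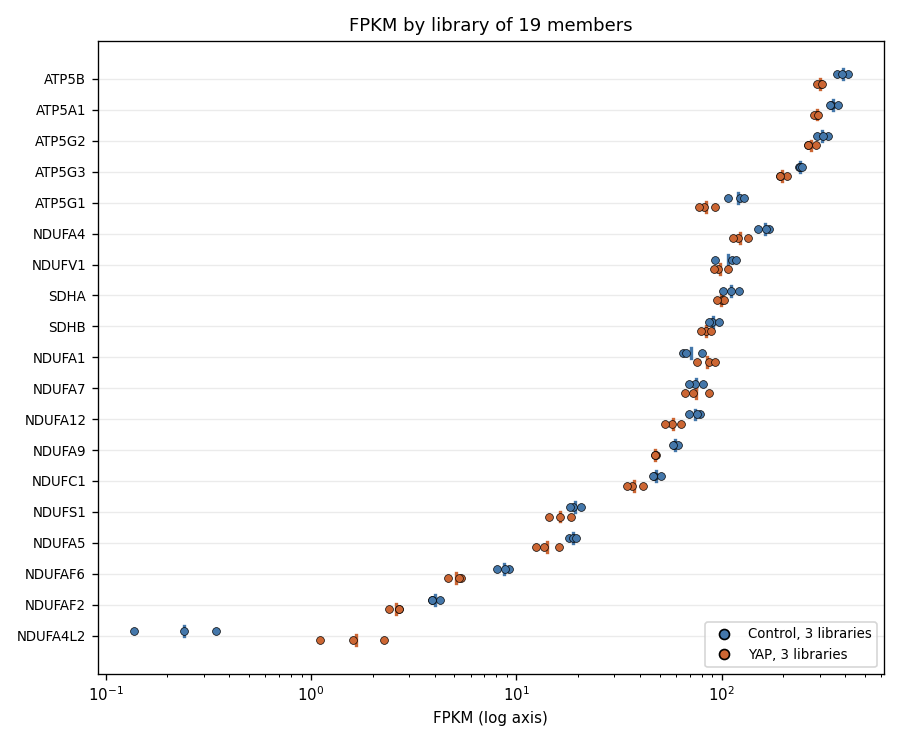
FPKM (x axis, log scale) of 19 members in each of the 3 Control and 3 YAP-labelled libraries, one point per library, with a vertical bar at each group's mean. The YAP points lie to the left of the Control points for ATP5B, NDUFA4, ATP5G1, NDUFA9 and NDUFAF6, the groups mix for NDUFV1, SDHB and NDUFA7, and NDUFA4L2 is far lower in level and has its YAP points on the right.

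The assembly factors of complex I included the largest falls of all members. NDUFAF6, which acts early in complex I assembly, had 9.18, 8.06 and 8.79 FPKM in Control 1 to 3 and 5.38, 4.64 and 5.25 FPKM in YAP 1 to 3. It was 41.3% lower on average with no overlap (log2 change -0.67, SE 0.09, limma adjusted p = 0.00024), and -0.59 after scaling (adjusted p = 0.00053). NDUFAF2, a paralogue of NDUFA12 that acts late in assembly, had 3.90, 4.27 and 3.87 FPKM in Control and 2.69, 2.40 and 2.70 FPKM in YAP. It too was separate between groups (log2 change -0.48, SE 0.09, limma adjusted p = 0.0018, and -0.41 with adjusted p = 0.0051 after scaling), on 95 to 176 reads per library. NDUFAF8 fell by 0.33 in the deposited values (limma adjusted p = 0.045) with overlapping groups. It did not pass after scaling (adjusted p = 0.15) or without Control 1 (0.16), Control 2 (0.13), YAP 1 (0.15) or YAP 3 (0.12). The other NDUFAF factors did not pass, with log2 changes from -0.33 for NDUFAF5 (limma adjusted p = 0.060) to 0.00 for NDUFAF3. Over the 8 NDUFAF factors the median change was -0.29. ATP5S and ATP5SL, a factor tied to the ATP synthase and a complex I assembly factor, stood at -0.09 and 0.04 and did not pass.

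Complex II, the succinate dehydrogenase that also serves the citric acid cycle, had no member past the threshold among 4. SDHA, the flavoprotein subunit, stood at 121, 111 and 102 FPKM in Control 1 to 3 and at 100, 103 and 95 FPKM in YAP 1 to 3. The groups overlapped between Control 3 and YAP 2 (log2 change -0.16, 95% interval -0.34 to 0.02, limma adjusted p = 0.16). SDHB, the iron-sulphur subunit, had 89.8, 97.0 and 87.0 FPKM in Control and 84.4, 88.5 and 79.0 FPKM in YAP. It was the complex II member nearest to no change (log2 change -0.12, 95% interval -0.29 to 0.05, limma adjusted p = 0.26), again with overlap. The membrane anchors SDHC and SDHD changed by -0.14 and -0.20. In both, all YAP libraries were below all Control libraries (50% of the complex, against 31.6% of all tested genes), but the groups overlapped after scaling. SDHD passed without Control 1 (-0.25, limma adjusted p = 0.039). The complex's median was -0.15 in deposited values.

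Complex III, which hands electrons from ubiquinol to cytochrome c, was represented by 9 rows known only by symbol. Of these 8 were tested, 1 fell (12.5%, against 23% of all tested genes) and none rose, with a median log2 change of -0.20. After scaling none of the 8 passed, and the median was -0.11. UQCRC1 (LOC102188264), a core protein of the matrix side, had 192, 192 and 167 FPKM in Control 1 to 3 and 154, 156 and 139 FPKM in YAP 1 to 3. No YAP library reached a Control library, and the change was -0.29 (limma adjusted p = 0.021). After scaling it was -0.20 (adjusted p = 0.12), and it lost the call without Control 1 (adjusted p = 0.069), without Control 2 (0.063), without YAP 1 (0.064) or without YAP 3 (0.085). UQCRFS1 (LOC102172289), the Rieske iron-sulphur protein, had 74.6, 80.9 and 68.9 FPKM in Control and 71.4, 81.6 and 73.9 FPKM in YAP. These mixed completely (log2 change 0.02, 95% interval -0.17 to 0.21). The sign was negative without Control 3 or without YAP 2, at -0.04 in both cases. UQCR10 has a row at 117 FPKM and another (LOC108635646) at 1.18 FPKM in Control, too low to be tested, and reads shared between near-identical copies make such symbols uncertain.

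Complex IV, cytochrome c oxidase, entered the rule only through NDUFA4 and NDUFA4L2. NDUFA4, once counted to complex I and now known as a complex IV subunit, had 150, 171 and 165 FPKM in Control 1 to 3 and 120, 134 and 114 FPKM in YAP 1 to 3. All YAP libraries were lower (log2 change -0.40, SE 0.09, limma adjusted p = 0.0042, and -0.31 with adjusted p = 0.023 after scaling). Its paralogue NDUFA4L2, known as a gene induced by low oxygen, had 0.346, 0.137 and 0.242 FPKM in Control and 1.11, 2.26 and 1.60 FPKM in YAP. Every YAP library was above every Control library, 6.85-fold in the means (log2 change 1.08, SE 0.14, limma adjusted p = 0.00018, and 1.11 after scaling). This rests on 13, 5 and 9 reads in Control and 44, 79 and 64 in YAP. NDUFA4L2 entered the test only through the group in which it was high, so its call was also read from the fit without a filter, which gave the same change with a limma adjusted p of 0.0047. Without any 1 of the 3 YAP libraries the gene no longer passed the filter and was not tested.

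Among the 17 complex IV rows known by symbol, 14 were tested, 4 fell (28.6%, against 23% of all tested genes) and 2 rose (14.3%, against 12.9%), with a median log2 change of -0.17. After scaling 1 fell (7.14%, against 13.5%) and 2 rose (14.3%, against 16.1%), with a median of -0.08. COX4I1 and COX5B were close to no change. COX4I1 (LOC102188434), the regulatory subunit IV, had 337, 355 and 295 FPKM in Control 1 to 3 and 308, 349 and 284 FPKM in YAP 1 to 3. Overlap was broad (log2 change -0.07, 95% interval -0.29 to 0.15), and the sign turned to 0.02 after scaling. COX5B (LOC102179291) stood at 253, 275 and 221 FPKM in Control and at 247, 277 and 230 FPKM in YAP, also overlapping (log2 change 0.01, 95% interval -0.20 to 0.23). Its value was -0.07 without Control 3 and -0.06 without YAP 2. COX5A (LOC102191741) had 145, 155 and 139 FPKM in Control and 127, 127 and 118 FPKM in YAP. The groups were apart with a change of -0.23 (limma adjusted p = 0.035), which did not pass after scaling (-0.14, adjusted p = 0.22) or without Control 1 (adjusted p = 0.063), Control 2 (0.12), YAP 1 (0.11) or YAP 3 (0.14).

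COX7B (LOC102186286), at 198, 255 and 216 FPKM in Control and 179, 195 and 169 FPKM in YAP, lost its call under similar settings. It was lower in every YAP library (log2 change -0.29, limma adjusted p = 0.040), did not pass after scaling (-0.20, adjusted p = 0.18), and kept the call in 2 of the 6 fits that leave out a library, those without Control 1 and without YAP 2. The adjusted p was 0.14 without Control 2, 0.059 without Control 3, 0.13 without YAP 1 and 0.12 without YAP 3. The other falls were in minor rows of duplicated symbols. A COX7C row (LOC102173562) had 6.86, 7.74 and 14.8 FPKM in Control and 5.59, 5.52 and 4.73 FPKM in YAP (log2 change -0.71, limma adjusted p = 0.020). The change was -0.40 without Control 3, and the call was lost without a filter (adjusted p = 0.095) and with limma-voom (0.071). The main COX7C row (LOC108633170), at 229 ± 24.4 and 202 ± 19.3 FPKM (SD, n = 3), did not pass (adjusted p = 0.18). A minor COX7A2 row (LOC108635087) changed by -0.26 (limma adjusted p = 0.037), and the main one (LOC102188675) by -0.13 (adjusted p = 0.34). The call of the minor row was lost after median-of-ratios (adjusted p = 0.15), fixed-sum (0.11) and quantile scaling (0.088), with limma-voom (0.36), and in every fit without 1 library other than the one without YAP 2 (0.050 to 0.21). COX6A1 (LOC102172376), COX6B1 (LOC102179036) and COX8A (LOC102188021) changed by -0.11, -0.19 and -0.25 and did not pass. COX7A2L (LOC102187496), a factor of respiratory supercomplexes, changed by -0.17 and did not pass.

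The rises of complex IV were in tissue isoforms. COX7A1 (LOC102175610), the form known from heart and skeletal muscle and also from brown fat, had 14.7, 14.5 and 11.0 FPKM in Control 1 to 3 and 31.4, 34.3 and 25.6 FPKM in YAP 1 to 3. It was 2.27-fold higher in the means with a wide gap between groups (log2 change 1.12, SE 0.13, limma adjusted p = 5.6e-05, and 1.21 after scaling). No skeletal or heart muscle marker exceeded 5 reads in any library. Among them, MYL2 and CKM had 0 reads in every Control library and 1 to 5 reads in every YAP library. The source of the COX7A1 rise was not tested. COX6B2 (LOC102184937), the testis form of COX6B1, had 0.858, 1.12 and 1.19 FPKM in Control and 1.54, 2.52 and 2.77 FPKM in YAP. Again the groups were separate (log2 change 0.66, limma adjusted p = 0.0042), at 19 to 65 reads per library. COX4I2 (LOC102179296), a form of subunit IV known from lung, had 0.836, 0.848 and 0.520 FPKM in Control and 0.311, 0.437 and 0.323 FPKM in YAP. It was lower in every YAP library but below the filter, and was not tested. COX7B2 (LOC102184512) had at most 2 reads in any library.

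The ATP synthase had 7 falls (46.7%, against 23% of all tested genes) and no rise among its 15 members. After scaling it had 2 falls (13.3%, against 13.5%) and no rise. Its median log2 change was -0.19 in deposited values and -0.10 after scaling. In the catalytic F1 head, 4 of 5 members fell (80%, against 23% of all tested genes), and after scaling 1 of 5 (20%, against 13.5%). ATP5B, the catalytic beta subunit and the highest member, had 413, 366 and 386 FPKM in Control 1 to 3 and 306, 293 and 309 FPKM in YAP 1 to 3. It was 22% lower in the means with a clear gap (log2 change -0.36, SE 0.08, limma adjusted p = 0.0047, and -0.27 with adjusted p = 0.026 after scaling). ATP5A1, the alpha subunit, had 342, 339 and 367 FPKM in Control and 292, 283 and 295 FPKM in YAP. Its groups were separate as well (log2 change -0.26, SE 0.07, limma adjusted p = 0.017), but it did not pass after scaling (-0.17, adjusted p = 0.11), without Control 3 (-0.23, adjusted p = 0.052) or without YAP 1 (-0.27, adjusted p = 0.087). The gamma and delta subunits of the central stalk, ATP5C1 and ATP5D, changed by -0.22 and -0.35 and did not pass after scaling. The groups of ATP5D overlapped. Among the fits that leave out a library, ATP5C1 kept its call only without YAP 2, and ATP5D only without Control 3 or without YAP 2. ATP5E, the epsilon subunit and the ATP synthase member nearest to no change, had 218, 266 and 228 FPKM in Control and 235, 254 and 208 FPKM in YAP. These overlapped (log2 change -0.03, 95% interval -0.25 to 0.19).

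In the peripheral stalk, which holds the head still, only ATP5F1 (subunit b) fell among 4 members, by 0.25 (limma adjusted p = 0.024), and it did not pass after scaling (adjusted p = 0.15) or without Control 2 (0.058), Control 3 (0.059), YAP 1 (0.13) or YAP 3 (0.093). ATP5O, ATP5H and ATP5J changed by -0.11 to -0.19 and did not pass. None of the 3 membrane accessory members (ATP5I, ATP5J2 and ATP5L) passed, with changes of -0.09 to -0.17. By symbol, ATP5MD has the row USMG5 at 86.4 FPKM and LOC102181948 at 20.7 FPKM in Control, and only the lower of them fell (log2 changes -0.23 and -0.35, limma adjusted p = 0.070 and 0.0080). ATP5MG likewise has ATP5L and LOC108638252, the latter at -0.02 with a sign that turned to 0.07 after scaling.

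The c ring is encoded by ATP5G1, ATP5G2 and ATP5G3, whose mature proteins are identical and whose import sequences differ. ATP5G1 had 123, 129 and 107 FPKM in Control 1 to 3 and 82.1, 92.4 and 77.8 FPKM in YAP 1 to 3. This was the largest fall of the ATP synthase, 29.9% in the means with no overlap (log2 change -0.51, SE 0.09, limma adjusted p = 0.0017, and -0.42 with adjusted p = 0.0077 after scaling). ATP5G3 had 237, 240 and 245 FPKM in Control and 192, 209 and 192 FPKM in YAP. It was also lower in every YAP library (log2 change -0.28, limma adjusted p = 0.012), but did not pass after scaling (-0.19, adjusted p = 0.081), without YAP 1 (adjusted p = 0.087) or without YAP 3 (0.052). ATP5G2, the most abundant of the set, had 290, 328 and 312 FPKM in Control and 264, 288 and 264 FPKM in YAP. All YAP libraries were below all Control libraries, by little, and the change did not pass (log2 change -0.19, limma adjusted p = 0.090).

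Shares within isoform sets do not depend on the scaling of a library. ATP5G1 made up 17.9 ± 1.51% (SD, n = 3) of c-ring FPKM in Control and 15.2 ± 0.538% in YAP, and ATP5G2 46.2 ± 1.35% and 49.1 ± 0.330%. ATP5G3 kept 35.9 ± 1.29% and 35.7 ± 0.210%, with overlap. COX7A1 made up 16.8 ± 1.19% of COX7A1 and both COX7A2 rows together in Control and 33.8 ± 2.82% in YAP. NDUFA4L2 made up 0.152 ± 0.0750% of NDUFA4 and NDUFA4L2 in Control and 1.32 ± 0.377% in YAP, so NDUFA4 supplied nearly all of the set's transcripts in both groups. The COX6B2 share was 0.371 ± 0.0772% and 0.903 ± 0.270%, and the COX4I2 share 0.221 ± 0.0389% and 0.113 ± 0.0122%. Except for ATP5G3 (p = 0.90), each of these shares was fully separate between groups in an exact two-sided permutation test, with p = 0.10, the smallest that 3 against 3 libraries can give.

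**Figure D4:**
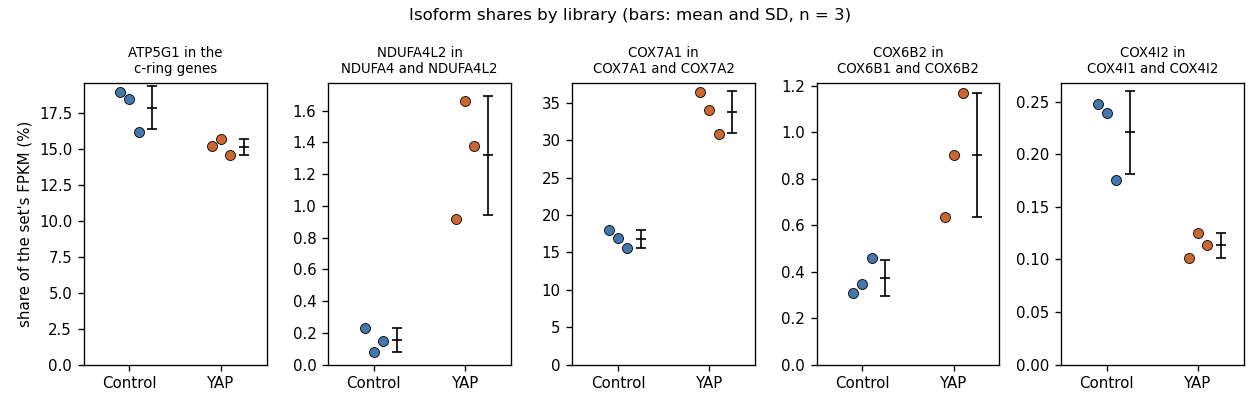
Share of a set's FPKM (y axis, percent) taken by 1 isoform in each Control and YAP-labelled library, one point per library, with mean and SD (n = 3) beside the points. The ATP5G1 and COX4I2 shares are lower and the NDUFA4L2, COX7A1 and COX6B2 shares higher in every YAP library, and the y axes differ between panels and start at 0.

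Single libraries moved the members together. Replicate 2 was the highest of its group in both groups for 43 members (63.2%), against 18.9% of all tested genes. Control 2 was the highest Control library for 47 of 67 members and YAP 2 the highest YAP library for 57, with NDUFA4L2 left out. As the median deviation from a gene's mean over the 6 libraries, on log2(FPKM + 1), members stood at 0.07, 0.18 and 0.03 in Control 1 to 3 and at -0.12, 0.01 and -0.18 in YAP 1 to 3. YAP 2 thus lay close to Control 3, and the replicates of a group differed by about as much as the groups did. The members' gene models were short, at a median of 939 bases against 2958 bases for all tested genes. All tested genes under 1000 bases had a median change of -0.14 and the 36 members among them -0.18. From 1000 to under 2000 bases these medians were -0.11 and -0.20 (25 members). From 2000 to under 4000 bases they were -0.09 and -0.23 (6 members). Genes of 4000 bases or more had -0.07, and the 1 member among them -0.23. The part of length in the members' change was not tested.

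**Figure D5:**
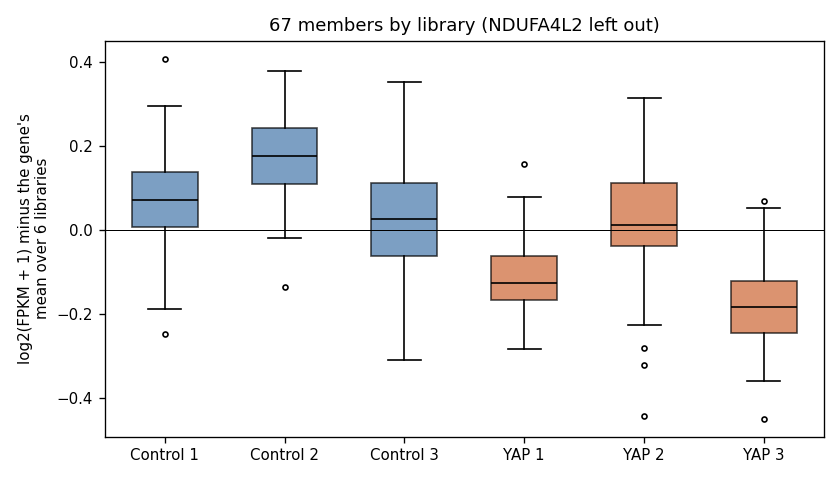
Deviation of each of 67 members from its own mean over the 6 libraries (y axis, log2(FPKM + 1)), by library (x axis), as boxes with the median line, the middle 50% of members, whiskers to 1.5 times that range and points beyond. Control 2 sits highest at a median of 0.18 and YAP 3 lowest at -0.18, with YAP 2 at 0.01 beside Control 3 at 0.03.

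Other genes of mitochondrial energy metabolism were counted in lists chosen by role, with earlier results of these data known. Their shares describe these lists only, and stand beside 23% lower and 12.9% higher among all tested genes (13.5% and 16.1% after scaling). Of 44 tested assembly factors outside the rule, 9 fell (20.5%) and none rose (6, or 13.6%, and 2, or 4.55%, after scaling), with a median log2 change of -0.08, beside -0.10 for all tested genes. The smallest adjusted p-values belonged to factors of complex IV: CMC2 at -0.54, COA7 at -0.53 and COX20 at -0.40 (limma adjusted p = 0.00052, 0.00094 and 0.0040). Among 20 tested electron carriers and their enzymes, 7 fell (35%) and 2 rose (10%), and after scaling 4 fell (20%) and 3 rose (15%), with a median of -0.13. GPD2, the mitochondrial glycerol-3-phosphate dehydrogenase, had 2.40, 2.67 and 3.39 FPKM in Control and 7.70, 6.58 and 8.46 FPKM in YAP (log2 change 1.17, limma adjusted p = 2.4e-05). SQRDL, the sulphide:quinone oxidoreductase, rose by 0.68 (limma adjusted p = 0.00011), and COQ8A, needed for ubiquinone synthesis, fell by 0.57 (adjusted p = 0.00041).

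Of 21 genes of the citric acid cycle and pyruvate entry, 10 fell (47.6%) and 3 rose (14.3%), and after scaling 5 fell (23.8%) and 3 rose (14.3%), with a median of -0.22. The share that rose was near that of all tested genes in both scalings. The rises were the mitochondrial pyruvate carrier subunits MPC2 (0.45, limma adjusted p = 0.0010) and MPC1 (0.51, adjusted p = 0.0035) and pyruvate carboxylase, PC (0.39, adjusted p = 0.0040), and citrate synthase, CS, was among the falls at -0.33 (adjusted p = 0.0047). Of 34 genes of import, cristae and carriers, 16 fell (47.1%) and 1 rose (2.94%), and after scaling 8 fell (23.5%) and 1 rose (2.94%), with a median of -0.25. The falls were led by PHB at -0.48 (limma adjusted p = 0.0011), SLC25A5 at -0.39 (0.0014) and TOMM40 at -0.46 (0.0031). Of 19 regulators of mitochondrial transcription and biogenesis, 6 fell (31.6%) and none rose, and after scaling 1 fell and 1 rose (5.26% each), with a median of -0.17. GABPB1, a subunit of nuclear respiratory factor 2, changed by -0.41 (limma adjusted p = 0.0070), PPRC1 by -0.30 (0.020) and TFB2M by -0.29 (0.030), while PPARGC1A and PPARGC1B were below the filter.

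The list of respiratory regulators linked to hypoxia had the opposite balance, with 5 rises (38.5%) and 2 falls (15.4%) among 13 tested genes, 6 rises (46.2%) and 2 falls (15.4%) after scaling, and a median of 0.18. BNIP3, a mitophagy receptor, had 35.0, 36.9 and 33.6 FPKM in Control 1 to 3 and 106, 116 and 103 FPKM in YAP 1 to 3. The groups were far apart (log2 change 1.60, limma adjusted p = 7.4e-08). LONP1, the matrix protease that degrades COX4I1 under low oxygen, rose by 0.40 (limma adjusted p = 0.0023), and BNIP3L by 0.38 (adjusted p = 0.0064). The falls were CHCHD4, of the import pathway to the intermembrane space, at -0.36, and HIGD1A at -0.33.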

How the data were processed

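Total RNA libraries of 3 Control and 3 YAP-labelled samples were made with a VAHTS Universal kit, per the labels' protocols. The tools fastp, HISAT2 and HTSeq are named, without versions, in the submitters' processing notes. Genome build, annotation and strand setting were not given in the sources used here. For each group the authors deposited a table of FPKM values, with 16285 genes in each. The 6 further per-sample columns (3 named TAZ, 3 named pcDNA) were not used. Those named pcDNA equal the Control columns in all 16285 rows.

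Members matched 68 of 68 RefSeq symbols of assembly ARS1.2, used for names only. The members and lists were chosen with earlier results of these data known. Genes that reached 1 FPKM in 3 or more libraries were tested as log2(FPKM + 1) with limma 3.58.1 in R 4.3.3 (eBayes with trend), with Benjamini-Hochberg adjustment over all tested genes and 95% intervals. Median-of-ratios scaling was run beside the deposited values. Fragments per library were recovered as whole numbers for all 15958 genes above 0, and served limma-voom. The smallest gene model length that gave whole reads within a set limit of 0.002 was taken. Agreement within that limit is therefore part of the procedure, and recovered reads can be too low for genes with few reads. The procedure was tested on simulated data.

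Named genes were, per complex, up to 3 rises and 3 falls past the threshold with separate groups, the member nearest to no change, core subunits, isoform sets and rows below the filter, plus up to 3 genes per list. Other members named in the text (NDUFA1, NDUFA9 and those given by range) were chosen after their values were seen. A member named by the rule is not reported here, though the counts include it. Replicate numbers come from the titles. Alternatives covered the pseudocount, filter, scaling, variance trend, replicate block, recovered reads and leaving out each library.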

Additional observations from a re-analysis of the deposited data

How the results depend on the processing

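The members called higher and lower, 1 and 19 in the deposited values, were 2 and 9 with median-of-ratios scaling and 2 and 16 with fixed-sum scaling. They were 2 and 11 with quantile normalization, and 2 and 5 with recovered reads and limma-voom. They were 1 and 14 without a filter, 1 and 17 with a filter of 0.1 FPKM or without a variance trend, and 1 and 19 with a pseudocount of 0.1. Leaving out 1 library gave 0 to 2 higher and 8 to 29 lower. Over all tested genes, 1392 higher and 2476 lower, the lower count was 1453 with median-of-ratios scaling and 1393 with limma-voom. It was 1710 with fixed-sum scaling and 1957 with quantile normalization. It was 2276 without a filter, 2622 with a filter of 0.1 FPKM, 2427 without a variance trend and 2455 with a pseudocount of 0.1. Leaving out 1 library gave 909 to 1326 higher and 1381 to 2189 lower among all tested genes. The members' median log2 change of -0.19 was -0.10 with median-of-ratios scaling, -0.14 with fixed-sum scaling, -0.12 with quantile normalization, -0.09 with limma-voom, and -0.25 to -0.14 without 1 library. The cause of these shifts was not tested.

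With the replicate block, 2 members were called higher (2.94%, against 17% of all tested genes) and 43 lower (63.2%, against 3745 genes or 34.8%), a share above the background, unlike the fit without the block. With block and median-of-ratios scaling, 5 members were higher (7.35%, against 2523 genes or 23.4%), 20 were lower (29.4%, against 2514 genes or 23.4%) and the median was -0.10. The numbers were not taken as pairs: deviations of same-numbered libraries correlated at -0.02, 0.59 and 0.60, and not every library correlated best with its own number. 

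Changes near 0 turned sign. COX4I1 was 0.02 with median-of-ratios scaling, alone or with the block, 0.06 with quantile normalization and 0.03 with limma-voom. ATP5MG (LOC108638252) was 0.07 with that scaling, alone or with the block, 0.03 with fixed-sum scaling, 0.05 with quantile normalization and 0.08 with limma-voom. Leaving out 1 library gave -0.15 to 0.00 for COX4I1, -0.10 to 0.05 for ATP5MG, -0.11 to 0.09 for NDUFA7, -0.04 to 0.07 for UQCRFS1 and -0.07 to 0.09 for COX5B. ATP5B lost its call with quantile normalization (-0.22, limma adjusted p = 0.070). At this depth, 3 reads at the median member length equal 0.086 to 0.098 FPKM, so counting error is largest for the named rows with the fewest reads in a library: COX7B2 (0 to 2), NDUFA4L2 (5 to 79), the UQCR10 row LOC108635646 (9 to 23) and COX6B2 (19 to 65).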
